A study of Mus musculus with 12 samples.

Results

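Vehicle-treated adipocytes at day 8 of differentiation were measured on 3 of the 12 arrays of the series, 1 each from cells of passage 6, 7 and 8. The cells were 3T3-L1, an established mouse fibroblast line whose confluent cultures become fat-storing adipocytes when differentiation is induced. The labels give ethanol and DMSO as the control treatment, from day 0, when the standard differentiation cocktail was added, to day 8, when RNA was taken. The other 9 arrays, which carry the same 3 passages, came from cells given alpha-linolenic acid (ALA) at 50 µM, an inhibitor of delta-6-desaturase (D6D) at 5 µM, or both, over the same days. They were used here only to look at passage again in arrays apart from the control, with treatment as a term, and no treatment was compared. All cultures came from this 1 line and shared maintenance medium with insulin at 5 µg/ml, high glucose and 10% serum, so the arrays show adipocytes under constant insulin, and nothing from day 0 or from fat tissue was measured with them. The labels do not say whether the 3 passages were separate thaws or 1 culture carried forward.

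White adipocytes store fatty acids as triacylglycerol in a lipid droplet coated by perilipins, and release them through a short chain of lipases when cyclic AMP rises. The nuclear receptor PPARG, with C/EBP factors, switches on the genes of lipid uptake, synthesis and storage as the preadipocyte matures. Mature cells also secrete hormones such as adiponectin, and lay down a shell that contains collagen.

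Each value was a log2 signal of 1 transcript cluster, the summary of the probes that read 1 gene, on 1 array. A difference of 1 is a doubling of the signal. Signals of different clusters depend on their probes as well as on the RNA, so a place near the top or the floor describes the array signal and gives no order of transcript abundance between genes. The 19480 named genes ran from a mean of 1.92 to 13.32 over the 3 control arrays, with a median of 6.32. As a floor, each array's 95th percentile of 1091 olfactory receptor genes, a family used by sensory neurons, was taken as its background limit (5.35, 5.27 and 5.10 at passages 6, 7 and 8). By this limit 12080 genes, or 62%, were above background on all 3 arrays, 6209 on none, and 1191 on 1 or 2 of them. A gene said to be not above background missed the limit on at least 1 array and can lie above it on the others. The arrays had median signals between 6.19 and 6.23, and each pair correlated across clusters with r between 0.990 and 0.993. Clusters are not independent replicates, and these values describe only how alike the arrays were.

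**Figure D1:**
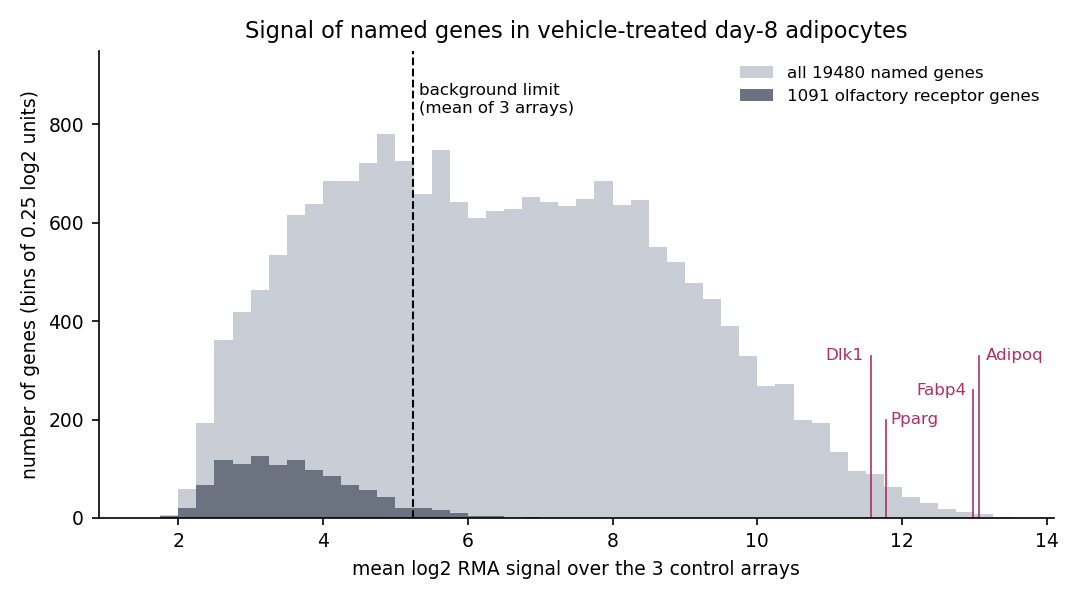
Histogram of the mean log2 signal of the 19480 named genes (light) and of the 1091 olfactory receptor genes (dark) over the 3 control arrays, in bins of 0.25, with the mean background limit as a dashed line. Lines mark the means of Adipoq (13.06), Fabp4 (12.99), Pparg (11.78) and Dlk1 (11.57), all far to the right of the limit.

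The marker genes placed the cells as adipocytes, with 1 preadipocyte marker still high. Adipoq, which encodes the hormone adiponectin, measured 13.02, 13.00 and 13.18 at passages 6, 7 and 8. Fabp4, the fatty acid binding protein of fat cells, measured 12.95, 12.90 and 13.10. Pparg measured 11.78, 11.75 and 11.82. These are ranks 9, 10 and 165 of the 19480 genes by mean signal, and the 3 arrays of each lie within 0.20 of each other. Dlk1, a membrane protein of preadipocytes that holds differentiation back, measured 11.53, 11.57 and 11.59 (rank 237). With no array from day 0, these values cannot show whether Dlk1 had fallen. In these whole cultures a share of undifferentiated cells and a level within each cell cannot be told apart.

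Of 23 measured adipocyte markers, 22 were above background, with a median of 11.04 beside 6.32 for all named genes, and 12 were among the highest 500. The 4 highest were Scd1 (13.14 ± 0.03, SD, n = 3, as for all means below), the stearoyl-CoA desaturase that makes monounsaturated fatty acids, then Adipoq, Fabp4 and the triacylglycerol lipase Pnpla2 (12.55 ± 0.05). Cebpa, a partner of Pparg, measured 10.03, 10.04 and 10.04. The insulin-responsive glucose transporter Slc2a4 measured 9.40, 9.03 and 9.17. Leptin (Lep), at 7.52, 7.69 and 8.16, stood closer to the middle of the scale. Rbp4, the retinol carrier that fat tissue secretes, was the single marker not above background (5.42, 5.44 and 5.04).

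Of 17 preadipocyte and fibroblast markers 16 were also above background, with a median of 9.25. Beside Dlk1 they included the intermediate filament gene Vim (12.79 ± 0.03), Igfbp4, which binds insulin-like growth factors (11.20 ± 0.10), and Ddah1 (10.79 ± 0.05). The stem cell antigen Cd34 was not (5.31, 5.64 and 5.26). Thus the cultures carried high signals of both the mature and the precursor lists.

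Lists for other cell types had smaller shares above background than the 62% of all named genes. Macrophage markers had 3 of 18 members above background (Cd14, Marco and C1qb) and a median of 4.79, and the defining genes Adgre1, Csf1r, Itgam and Ptprc were among the 15 that were not. Endothelial markers had 3 of 15 above background (Flt1 at 8.20 ± 0.31, Esam and Plvap), with Pecam1 at 5.04 ± 0.48 and Cdh5 at 4.07 ± 0.27 not above it. Above background were 6 of 18 epithelial, 7 of 18 hepatocyte, 8 of 22 skeletal muscle, 9 of 17 bone and cartilage and 9 of 19 neuronal markers, and the list medians lay between 4.75 and 5.47. Their highest members were Trp63 at 7.42, Apoa1 at 5.86, Des at 7.81, Alpl at 7.70 and Map2 at 7.76. Among the genes not above background were Epcam (4.62), Alb (4.18), Myod1 (4.66), Sp7 (4.72) and Rbfox3 (3.95).

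Promoter sequences are shown for a gene used by every cell, for 2 hormones of the fat cell and for the gene with the lowest mean, to show the range of CG dinucleotides behind the counts that follow. Each is the stretch of 250 bases before the start annotated by RefSeq on GRCm38.p6, 5′ to 3′ on the strand of the gene, with every CG in capitals. Eef1a1 lies at chr9:78481725-78481974 (minus strand), Adipoq at chr16:23146286-23146535 (plus), Retn at chr8:3655520-3655769 (plus) and Olfr1061 at chr2:86414051-86414300 (minus).
Eef1a1: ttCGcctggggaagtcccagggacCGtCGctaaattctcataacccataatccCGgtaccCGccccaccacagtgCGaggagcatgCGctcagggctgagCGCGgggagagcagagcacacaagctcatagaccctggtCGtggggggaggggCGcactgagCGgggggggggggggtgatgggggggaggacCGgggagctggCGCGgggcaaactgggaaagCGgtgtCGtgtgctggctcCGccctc
Adipoq: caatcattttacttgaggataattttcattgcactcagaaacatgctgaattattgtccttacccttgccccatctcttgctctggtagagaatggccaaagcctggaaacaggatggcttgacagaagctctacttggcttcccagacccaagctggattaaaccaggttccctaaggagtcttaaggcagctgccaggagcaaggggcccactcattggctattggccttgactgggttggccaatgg
Retn: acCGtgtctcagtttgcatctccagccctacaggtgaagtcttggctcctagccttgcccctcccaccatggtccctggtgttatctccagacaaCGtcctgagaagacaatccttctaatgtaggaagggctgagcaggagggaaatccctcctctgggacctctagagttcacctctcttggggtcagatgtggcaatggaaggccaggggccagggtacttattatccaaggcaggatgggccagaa
Olfr1061: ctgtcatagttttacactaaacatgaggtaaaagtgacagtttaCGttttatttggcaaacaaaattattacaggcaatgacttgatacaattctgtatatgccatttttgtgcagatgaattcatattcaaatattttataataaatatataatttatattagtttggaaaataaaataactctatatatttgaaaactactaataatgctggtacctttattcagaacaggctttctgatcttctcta
The Eef1a1 stretch, of the elongation factor that brings transfer RNA to the ribosome, holds 18 CG. The other 3 hold few. That of Adipoq holds 0, that of Retn, which encodes resistin, holds 2, and that of Olfr1061 holds 1.

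The same counts over all promoters gave the groups' typical values. RefSeq windows running from 250 bases before the start to 50 after it were matched for 408 of the highest 500 genes (542 windows), 394 of the middle 500 and 412 of the lowest 500. The median number of CG in a window was 21 for the highest 500, 14 for the middle 500 and 2 for the lowest 500, and the median GC content 61.3%, 58.7% and 38.3%. Adipocyte markers (17 of 23 genes matched, 25 windows) had a median of 6 CG although 12 of the 23 genes are in the highest 500. The letters GGGCGG, searched on both strands, were in 61.6% of windows of the highest 500, 36% of those of the adipocyte markers, 6.26% of those of the lowest 500 and 47.9% of the 19131 windows of all named genes. The letters TATAAA were in 10.3%, 12%, 33.3% and 12.3%, most often in the lowest 500. CCAAT was in 39.1%, 36%, 42.3% and 37.9%. TTGCNNAA, a form of the C/EBP site and searched like the others on both strands, was in 8.86%, 20%, 13.0% and 10.1%. Over all 32851 windows in the table the shares of these 4 motifs were 35.7%, 13.6%, 37.4% and 10.8%. The C/EBP form was also in 15.5% of windows of the olfactory receptors, so its share in the adipocyte markers is not particular to fat cell genes. A form of the PPARG site was searched as well. It was in 0% of windows of the highest 500, the adipocyte markers and the lowest 500, and in 0.0523% of those of all named genes. At so low a share the 25 windows of the adipocyte markers cannot show a difference. These are matches of letters in a short window. The olfactory receptors, which set the floor, make up 173 of the lowest 500 genes, and their own median was 1 CG, so the low end partly shows that family.

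The 20 highest genes came from many functions. Bsg, the membrane chaperone of lactate transporters, had the highest mean (13.37, 13.34 and 13.24). Fth1, the ferritin heavy chain that stores iron, followed with 13.29, 13.28 and 13.28, the narrowest range of all the highest 500 genes. The others were Gapdh and Aldoa of glycolysis, the metal-binding Mt1, Eef1a1, Scd1, the matrix protein Sparc, Adipoq, Fabp4, the tetraspanin Cd81, the p53 regulator Mdm2, Vim, the reductase Cyb5r3 and the respiratory subunit Cox7c. Calr, Hspa5, Ero1a and Dad1, which fold, oxidise or glycosylate proteins in the endoplasmic reticulum, were also among them. Gm12070, listed by RefSeq as a transcribed pseudogene, had a mean of 13.07, and whether its probes also read a related gene was not tested. All 20 means lay between 12.77 and 13.32, and ranges over the 3 arrays were at most 0.22, so these genes are not ordered among themselves.

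The highest 500 genes began at 10.99, where Shc1 and Ptma were just inside and Angptl4 and Ddit4 just outside, all 4 at 10.99. Of these 500, 188 (37.6%) belonged to a list or gene family examined here. Protein synthesis was well represented. Of 63 cytosolic ribosomal protein genes 30 were in the highest 500 and 61 above background, the exceptions being the tissue-restricted copies Rpl3l (4.68) and Rpl39l (5.10). Of 17 translation factors 9 were in the highest 500 (median 11.28), among them Eef2 (12.50 ± 0.04), Pabpc1, which binds poly(A) tails (12.28, 12.29 and 12.29), and Eif5a (11.98 ± 0.16). Eef1a2, the form of muscle and neurons, stood at 5.74 ± 0.10.

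Glycolysis and oxidative phosphorylation were also well represented. Of 24 genes of glucose uptake and glycolysis 21 were above background and 9 in the highest 500, led by Gapdh (13.20 ± 0.02), Aldoa (12.85 ± 0.07), the pyruvate kinase Pkm (12.63 ± 0.05) and the phosphoglycerate kinase Pgk1 (12.32 ± 0.06). Transporters differed by isoform. Slc2a1, the basal glucose transporter, measured 11.91, 11.95 and 11.92, whereas Slc2a2, Slc2a3 and Slc2a5 were not above background (4.58, 4.12 and 5.19). All 29 oxidative phosphorylation subunits were above background (median 10.17), led by Atp5b (12.59 ± 0.02), Cox6a1 (12.40 ± 0.11), Atp5a1 (12.22 ± 0.10) and Atp5d (11.81 ± 0.05). ATP synthase was the family with 9 of 17 genes in the highest 500. Among cytochrome c oxidase subunits the widely used forms Cox6a1 and Cox8a (11.78) were high, the muscle-type forms Cox6a2 (8.43), Cox7a1 (8.11) and Cox8b (6.53) were lower but above background, and the restricted forms Cox6b2 (4.94) and Cox7b2 (3.28) were not. Fatty acid oxidation had 22 of 24 genes above background but 0 in the highest 500, with Hadh (10.98 ± 0.07), Hadha (10.96 ± 0.07), Etfa (10.71 ± 0.12) and Hadhb (10.55 ± 0.15) at its top. Of the carnitine palmitoyltransferases, which let fatty acids into mitochondria, Cpt1a measured 7.96, 8.23 and 8.58 and the muscle form Cpt1b 5.89, 6.04 and 5.98. Ppara, the receptor that drives this pathway in liver (5.25), and the peroxisomal enzyme Ehhadh (4.49) were not above background.

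**Figure D2:**
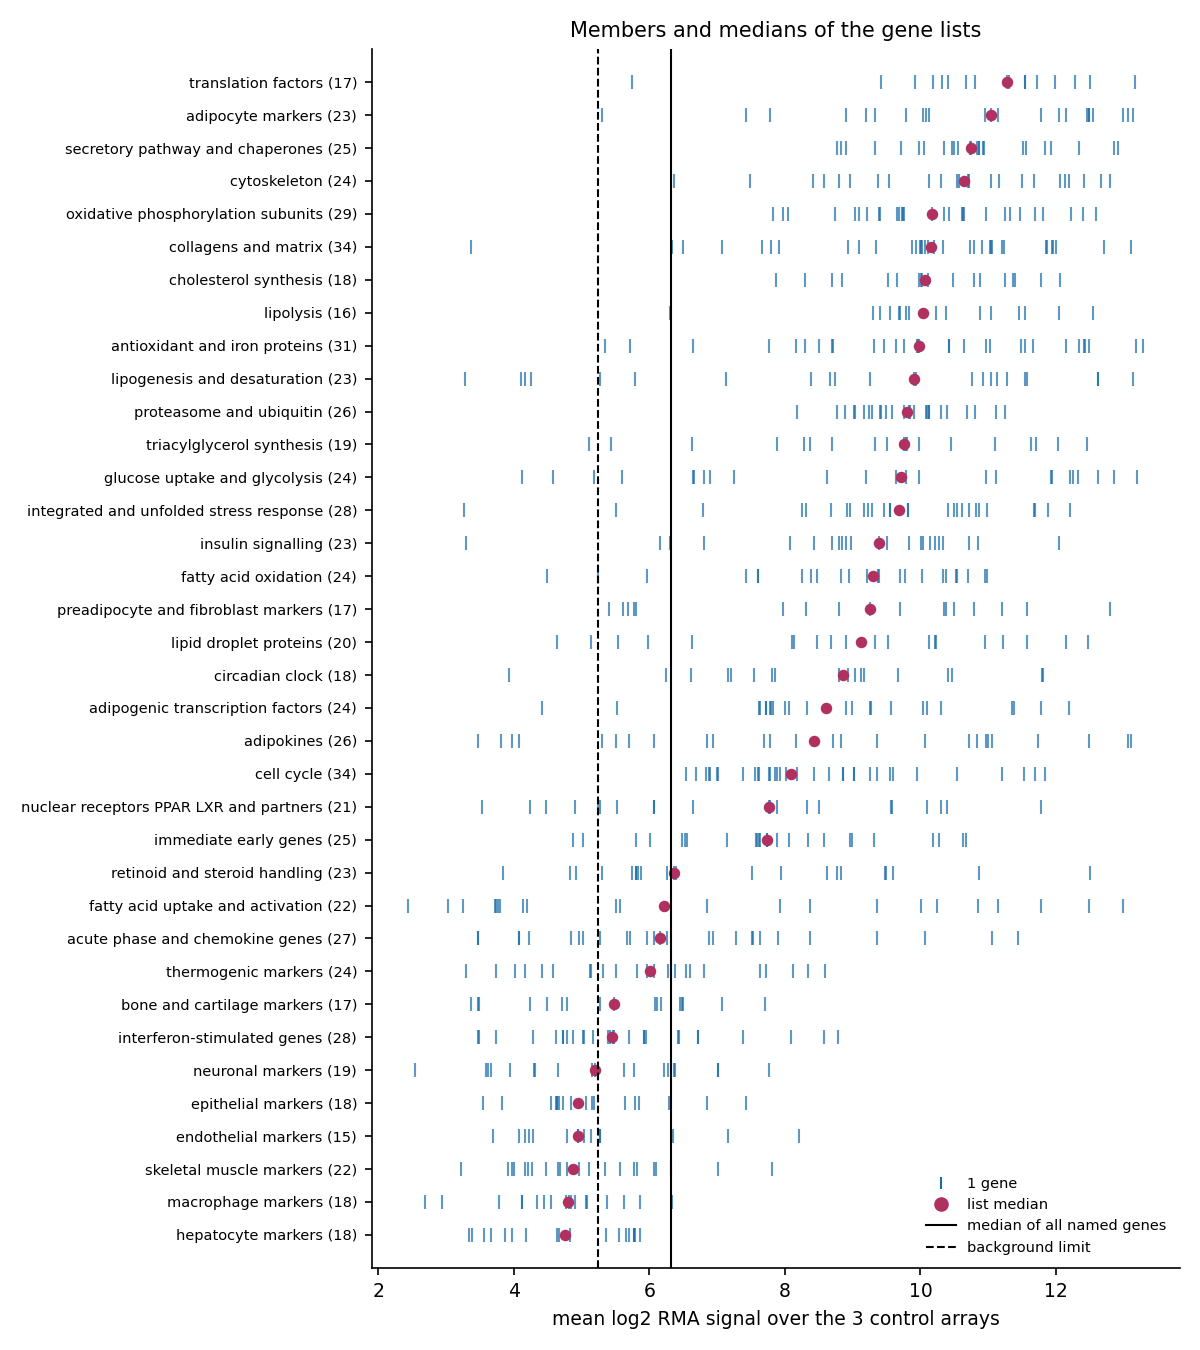
Mean log2 signal over the 3 control arrays of each member (tick) of 36 gene lists, with the list median (dot), the number of measured members in brackets, the median of all named genes (solid line, 6.32) and the mean background limit (dashed line). Translation factors and adipocyte markers are at the top with medians of 11.28 and 11.04, and hepatocyte markers at the bottom with 4.75.

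Lipid genes were high as pathways and divided sharply by isoform. In lipogenesis and desaturation 18 of 23 genes were above background (median 9.91) and 8 in the highest 500, led by Scd1, by Fads2 (12.62 ± 0.04) and Fads1 (11.57 ± 0.09), the delta-6 and delta-5 desaturases of polyunsaturated fatty acids, and by the citrate carrier Slc25a1 (12.62 ± 0.09). Fads2 is the enzyme the study's inhibitor is aimed at, and in the vehicle cells it measured 12.61, 12.58 and 12.66. Of the elongases, which add carbons to fatty acids, Elovl1 (11.54 ± 0.02), Elovl5 (10.93 ± 0.05) and Elovl6 (9.93 ± 0.25) were above background, and Elovl2 (4.26), Elovl3 (4.16), Elovl4 (4.11) and Elovl7 (3.28) were not. Elovl5 and Elovl2, which both elongate polyunsaturated fatty acids, thus lay on opposite sides of the limit. Scd3, at 10.20, 9.88 and 9.64, was above background, and Scd4 was not (5.28).

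Storage and release showed the same division. Triacylglycerol synthesis had 18 of 19 genes above background (median 9.76), with the glycerol-3-phosphate dehydrogenase Gpd1 (12.45 ± 0.19), Agpat2 (12.03 ± 0.17), Agpat3 (11.70 ± 0.06) and Agpat1 (11.62 ± 0.22) highest and Mogat1 (5.11) not above it. Dgat2, which adds the last acyl chain, measured 11.10 ± 0.06 and its partner Dgat1 9.97 ± 0.13. Of 20 lipid droplet genes 18 were above background. The 4 highest were the acyltransferase Lpcat3 (12.47 ± 0.03), Cidec (12.14 ± 0.14), which fuses droplets, Cavin1 (11.57 ± 0.19) and Plin2 (11.22 ± 0.05). Of the perilipins, Plin1 (10.95), Plin2, Plin3 (8.11) and Plin4 (10.12) were above background and Plin5, the form of oxidative tissue, was not (4.64, 4.52 and 4.75). Cidea, droplet protein of brown fat, was likewise not above it (5.14). All 16 lipolysis genes were above background (median 10.03), with Pnpla2, the hormone-sensitive lipase Lipe (12.04 ± 0.10), Gnas (11.55 ± 0.12) and Prkaca (11.45 ± 0.02) highest and the monoacylglycerol lipase Mgll lowest (6.08, 6.34 and 6.47).

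Fatty acid uptake had the most uneven list, with 13 of 22 genes above background and a median of 6.21. Fabp4, the lipoprotein lipase Lpl (12.48 ± 0.14), Got2 (11.78 ± 0.03) and the scavenger receptor Cd36 (11.15 ± 0.20) were its highest. Of the fatty acid binding proteins, Fabp4, Fabp5 (10.25 ± 0.20) and Fabp3 (5.57 ± 0.23) were above background, whereas Fabp1, Fabp2, Fabp6, Fabp7, Fabp9 and Fabp12 lay below it, between Fabp6 at 2.45 and Fabp2 at 4.20. Of the Slc27a transporters, Slc27a1, Slc27a3 and Slc27a4 (10.01, 6.86 and 8.36) were above it, and Slc27a2, Slc27a5 and Slc27a6 (3.74, 3.77 and 4.14) were not. All 18 cholesterol synthesis genes were above background (median 10.07), led by Hmgcs1 (12.06 ± 0.11), Nsdhl (11.77 ± 0.02), Fdft1 (11.39 ± 0.05) and Sc5d (11.36 ± 0.07).

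Regulators and secreted factors spread more widely. Of 24 adipogenic transcription factors 23 were above background (median 8.61), with Nfia (12.19 ± 0.03), Pparg, Nfib (11.38 ± 0.08) and Ebf1 (11.35 ± 0.02) highest. Cebpb and Cebpd, which act early in differentiation, measured 7.78 ± 0.07 and 7.72 ± 0.22, and Prdm16, a factor of brown and beige fat, was not above background (4.33, 4.61 and 4.31). Of 21 nuclear receptors and partners 15 were above it, among them Ncoa1 (10.39 ± 0.13), Nr2f2 (10.30 ± 0.10) and the oxysterol receptor Nr1h3 (10.09 ± 0.17), whereas Nr1h4, Nr1i2, Esr2, Pgr, Thrb and Ppara were not. Insulin signalling had 22 of 23 genes above background (median 9.39), with Gsk3b (12.05 ± 0.08), Sort1 (10.86 ± 0.13), Irs2 (10.71 ± 0.22) and the receptor Insr (10.33 ± 0.10) highest. Of the insulin receptor substrates, Irs1, Irs2 and Irs3 (8.84, 10.71 and 6.15) were above background and Irs4 was not (3.30).

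Of 26 adipokines and related secreted factors 20 were above background (median 8.43). Sparc, Adipoq, Retn (12.37, 12.47 and 12.64) and the angiotensin precursor Agt were highest. The inflammatory cytokines Tnf (4.07, 4.24 and 3.92) and Il6 (3.25, 3.71 and 3.47) were not above background, nor were Serpina12, Bmp8b, Fgf21 and Rbp4. Acute-phase and chemokine genes divided in the same way. Of 27 members 18 were above background, among them the chemokine Cxcl12 (11.43 ± 0.14), Lcn2 (11.05 ± 0.14), haptoglobin Hp (10.06 ± 0.23) and Orm1 (9.35 ± 0.29), and Il1b (4.22), Il1rn (3.47), Cxcl2 (4.84), Cxcl5 (4.96), Cxcl14 (5.02), Ccl5 (5.27) and Orm3 (4.07) were not. Interferon-stimulated genes had 13 of 28 above background (median 5.44), with Bst2 (8.78 ± 0.15), Irf1 (8.58 ± 0.25), Stat2 (8.09 ± 0.08) and Ifi35 (7.38 ± 0.13) highest, and Ifit1 (4.73), Mx1 (4.28) and Rsad2 (4.72) among those not above it. Isg15 (5.33, 5.45 and 5.47) missed the limit at passage 6 alone.

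Thermogenic markers as a list stood near all genes, and Ucp1 itself was low. Of 24 markers 14 were above background, close to the 62% of all named genes, with a median of 6.02 beside 6.32, and 0 were in the highest 500. Ucp1, which uncouples respiration to make heat, measured 3.44, 3.33 and 3.10, near the median of the olfactory receptors (3.49). The 10 members not above background were Ucp1, Dio2 (4.02), Elovl3, Cidea, Prdm16, Otop1 (5.12), Tbx1 (5.32), Hoxc10, Slc27a2 and Fgf21. The 4 highest members were the channel Kcnk3 (8.59 ± 0.26), Eva1b (8.34 ± 0.18), Cox7a1 and Ebf2 (7.72 ± 0.09). The coactivator Ppargc1a measured 7.51, 7.67 and 7.69.

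Matrix, cytoskeleton, secretion and protection from oxidants were the remaining lists with many high members. Collagens and matrix had 33 of 34 genes above background and 12 in the highest 500, led by Sparc, Bgn (12.70 ± 0.05), Col1a2 (11.99 ± 0.27) and fibronectin Fn1 (11.96 ± 0.09), and Col10a1, the collagen of growth-plate cartilage, was not (3.37). All 24 cytoskeletal genes were above it (median 10.64), with Vim, the actin Actb (12.66 ± 0.16), Tuba1b (12.41 ± 0.18) and cofilin Cfl1 (12.19 ± 0.11) highest. All 25 genes of the secretory pathway were as well (median 10.75), with Calr, Hspa5, Hsp90b1 (12.34 ± 0.04) and Ppia (11.93 ± 0.04) highest. So were all 31 antioxidant and iron genes (median 9.97), of which 11, among them Fth1, Mt1, Ftl1 (12.48 ± 0.03), Mt2 (12.43 ± 0.11) and catalase Cat (12.33 ± 0.09), were in the highest 500. The stress response list had 26 of 28 above background (median 9.69), with Slc3a2 (12.21 ± 0.04), Asns (11.89 ± 0.02), Psat1 (11.69 ± 0.09) and Xbp1 (11.67 ± 0.09) highest, and Stc2 (3.26) not above it. Fgf21 (5.22, 5.52 and 5.80) missed the limit at passage 6 alone. All 26 proteasome and ubiquitin genes were above background (median 9.80), with Sqstm1 (11.25) and Psmd7 (11.11) highest.

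All 34 cell cycle genes were above background (median 8.10) in these postconfluent cells. The 4 highest act in G1 or hold cells there, the inhibitor Cdkn1a (11.87, 11.85 and 11.77) and Ccnd3, Ccnd2 and Cdk4 (11.70, 11.53 and 11.20). Genes of DNA replication and mitosis were spread lower, with Mki67 at 8.85 ± 0.14, Top2a at 7.38 ± 0.34 and Cdk1 at 7.86 ± 0.37. Immediate early genes, which react within minutes to serum or stress, had 23 of 25 above background (median 7.73), led by Myc (10.67 ± 0.06), Fosl1 (10.62 ± 0.05), Jund (10.27 ± 0.04) and Dusp1 (10.19 ± 0.15), with Fos itself at 6.01 ± 0.21 and Egr3 and Nr4a3 not above it. Of 18 clock genes 17 were above it, led by Bhlhe40 (11.81 ± 0.11), Dbp (11.80 ± 0.35), Clock (10.47 ± 0.01) and Nr1d1 (10.41 ± 0.44), and Hlf was not (3.92).

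The 500 genes around the median lay between 6.23 and 6.43, all above background, and 82 of them (16.4%) belonged to a list or family, beside 22.6% of all named genes, among them 15 zinc finger (Zfp) genes and 11 solute carriers. The 5 nearest the median were H1f10, a linker histone, Fgf4, a growth factor of early embryos, Mios, a regulator of amino acid signalling to mTORC1, Pianp and Gm5294. Mios measured 6.16, 6.16 and 6.63, and Fgf4 6.36, 6.58 and 6.02. The median range over the 3 arrays was 0.35 in this group, beside 0.16 in the highest 500. As each array is a different passage, this range holds passage and measurement noise together. Genes of retinoid and steroid handling had the list median closest to it (6.36, 19 of 23 above background), although Hsd11b1, which regenerates active glucocorticoid, was at 12.50 ± 0.03.

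Sensory receptors were numerous among the lowest 500 genes. These 500 lay between 1.92 and 2.68, 0 of them above background, and 312 (62.4%) belonged to a list or family. These included 173 of 1091 olfactory, 69 of 318 vomeronasal and 10 of 38 taste receptors. The 5 lowest were the olfactory receptors Olfr818, Olfr814, Olfr790 and Olfr1061 and the sperm-associated gene Pate10. Olfr1061 measured 2.22, 1.80 and 1.74. As the limit is a percentile of the olfactory family itself, 42 of its 1091 genes were above it, up to Olfr1410 at 6.76 ± 0.05. Of 99 cytochrome P450 genes 22 were above it (median 4.40), with the sterol enzyme Cyp51 (10.12 ± 0.14) and Cyp1b1 (9.76 ± 0.10) highest.

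Most genes differed little between the 3 passages. Among the 12080 genes above background the median range between the 3 control arrays was 0.26, the 95th percentile 0.68, and 71 genes, or 0.588%, had a range over 1. Passages 6 and 7 differed by over 1 in 6 of these genes, 7 and 8 in 32, and 6 and 8 in 51. With 1 control array for each passage there is no test among them, and passage, the time of culture and anything else that went with it cannot be told apart. The 50 genes with the widest range (1.08 to 2.05) were chosen from these values. Kcnk1 and Ptchd1, both at 1.08, were the last inside and Mpdz and Ccbe1, both at 1.06, the first outside. In 36 of the 50 the highest array was passage 8, in 12 passage 6 and in 2 passage 7. Of all 12080 genes above background, 5005 were highest at passage 8, 3895 at passage 6 and 3180 at passage 7.

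**Figure D3:**
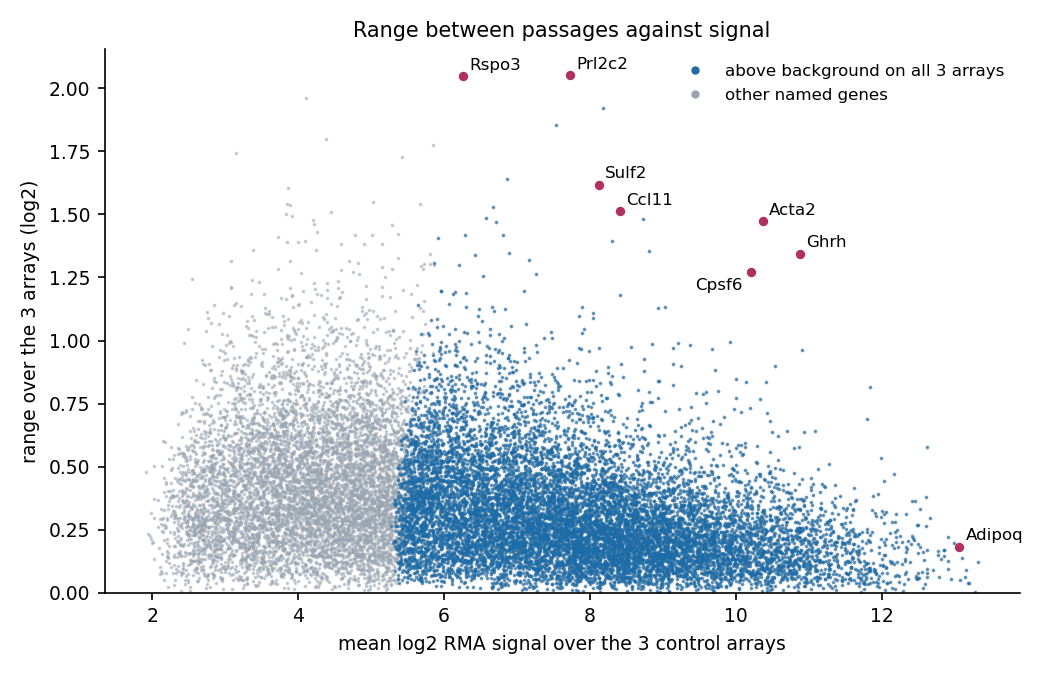
Range of the log2 signal over the 3 control arrays against its mean, 1 point per named gene, blue where the gene was above background on all 3 arrays and grey elsewhere, with the labelled genes in red. Rspo3 and Prl2c2 have the widest range of the genes above background (both 2.05), and Acta2 (1.47), Ghrh (1.34) and Cpsf6 (1.27) stand apart among genes with signals above 10.

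Several of the 20 genes with the widest ranges encode secreted proteins or actins. Rspo3, a secreted amplifier of Wnt signalling, measured 5.36, 6.01 and 7.41 at passages 6, 7 and 8. Sulf2, which trims sulfate from heparan chains at the cell surface, measured 7.41, 7.92 and 9.03, and the eosinophil chemokine Ccl11 7.61, 8.49 and 9.13. The growth factor Fgf10 measured 7.66, 8.20 and 9.05, and Sfrp2, a secreted Wnt modulator, 8.25, 8.56 and 9.60. Each of these was lowest at passage 6 and highest at passage 8. Acta2, the smooth muscle actin of myofibroblasts, measured 9.81, 10.02 and 11.28, and its relative Actg2 5.81, 5.81 and 7.23. Both were alike at passages 6 and 7 and set apart at passage 8. Pcdh18, a protocadherin, and the orphan receptor Gpr149 also rank by passage (5.70, 6.53 and 7.04, and 6.12, 6.71 and 7.76). Akap13 measured 6.08, 6.33 and 7.61 and Glb1l 5.38, 5.58 and 6.79.

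Others ran the opposite way. Prl2c2, Prl2c3 and Prl2c5, secreted proliferins of the prolactin family, measured 8.87, 7.49 and 6.82, then 8.59, 7.27 and 6.74, then 9.28, 7.90 and 7.36. They are near-identical neighbours on chromosome 13, so which of them the signal belongs to is uncertain. Ghrh, the growth hormone releasing hormone, measured 11.46, 11.05 and 10.12. The adhesion receptor Adgrf5 measured 9.41, 8.83 and 7.93, and the glycolytic Aldoc 7.60, 6.63 and 6.19. Masp2 (6.99, 7.30 and 5.83) was highest at passage 7. Bub1b, of the mitotic checkpoint, was lowest there (7.04, 6.15 and 7.50), as was Zfp934 (6.54, 5.85 and 7.33). At the other end, Fth1, Fgfrl1, Pabpc1, Dda1 and Tpp1 had the narrowest ranges of the highest 500 genes, between 0.0031 and 0.0123.

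**Figure D4:**
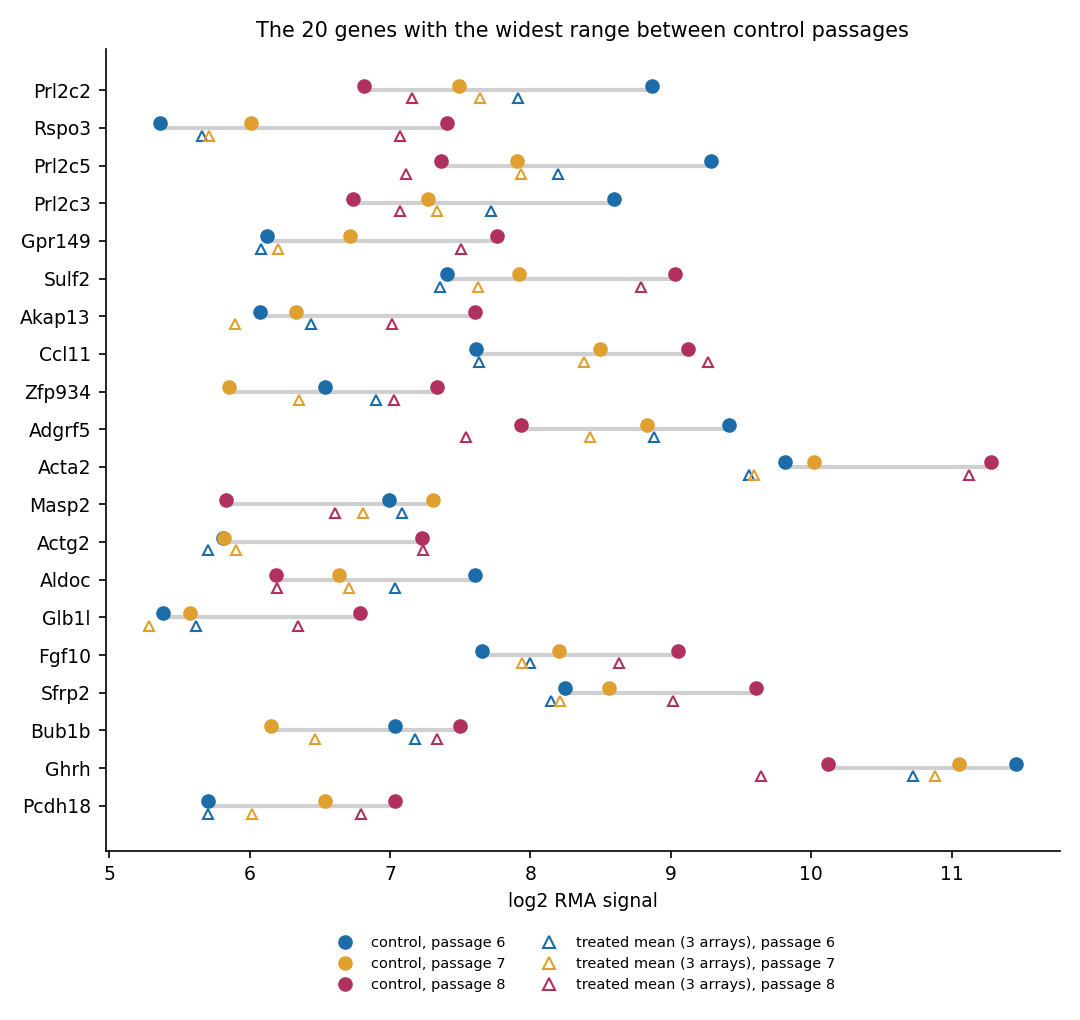
Log2 signal of the 20 genes with the widest range between the control arrays, as filled points by passage joined by a grey line, with the mean of the 3 treated arrays of the same passage as open triangles. The triangles run in the direction of the points for passage 8 against passage 6 in each gene.

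The 9 treated arrays, which did not choose these genes, showed differences in the same direction. They come from the same passages as the control arrays, so anything that went with a passage can be shared by both. They are therefore not an independent repeat of a passage. In 50 of the 50 the treated arrays' difference between passages 8 and 6 had the sign of the control's, as it had in 8139 of the other 12030 genes above background (67.7%). The limma F test of passage in the treated arrays gave an unadjusted p under 0.05 for 33 of the 50, beside 11.3% of all clusters and 12.0% of the other genes above background, and 24 had a p under 0.01 (3.11% of all clusters). This F test looks for a difference between any of the passages, and not only between passages 8 and 6. A gene that differs mainly at passage 7 is therefore counted too. Bub1b was counted in this way, with treated means of 7.18, 6.47 and 7.34 at passages 6, 7 and 8. After Benjamini-Hochberg adjustment over all 22104 clusters 1 gene passed (0.00452%). It was Acta2, with treated means of 9.56, 9.59 and 11.12, a difference between passages 8 and 6 of 1.57 (SE 0.11, limma adjusted p = 0.023). The limma adjusted p was 0.067 without the ALA array of passage 7, 0.052 after quantile normalization and 0.13 with passage as a number. Without passage 6 in all groups the difference of passage 8, then from passage 7, was 1.53 (adjusted p = 0.36), and without passage 7 it was 1.57 (adjusted p = 0.084). Without passage 8, passages 7 and 6 differed by 0.04 (adjusted p = 0.97). Without passage 8 in all groups 7 of the 50 had an unadjusted p under 0.05, beside 5.26% of all clusters. In the control arrays without passage 8, 10 of the 50 genes were still among the widest, and 25 without passage 6.

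The smallest unadjusted p-values among the 50 widest after Acta2 belonged to Actg2, Cpsf6, Lum, Sulf2, Ccl11, Adgrf5, Dpysl3, Sfrp2 and Apoa4. Their treated differences between passages 8 and 6 were 1.53 for Actg2 (SE 0.13, limma adjusted p = 0.059), -0.99 for Cpsf6 (SE 0.10) and 1.07 for Lum (SE 0.11), a collagen-binding proteoglycan, both with an adjusted p of 0.09. For Sulf2 and Ccl11 they were 1.43 and 1.64, for Adgrf5 -1.34 and for Sfrp2 0.87. Dpysl3, a cytoskeletal protein (7.81, 8.42 and 8.99 in control), and the apolipoprotein Apoa4 (7.47, 7.62 and 8.60) differed by 0.92 and 1.02. None of these except Acta2 passed the adjusted threshold. The proliferins went the same way in treated arrays, but less far, with differences of -0.75 (Prl2c2), -0.65 (Prl2c3) and -1.08 (Prl2c5) and unadjusted p-values of 0.19, 0.32 and 0.031.

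Among the lists, that of collagens and matrix and that of the cytoskeleton leaned to passage 8. Over all genes above background 6256 of 12080 were higher at passage 8 than at 6 in control. In the control arrays 32 of 33 matrix genes above background were higher at passage 8 than at 6 (median difference 0.31, beside 0.01 for all genes above background), and 23 of 24 cytoskeletal genes (median 0.22). Some lists of low signal leaned the other way in control. Lower at passage 8 were 7 of 8 skeletal muscle (median -0.41), 6 of 7 hepatocyte (-0.26) and 7 of 9 neuronal markers (-0.14) above background. The treated arrays did not show this lean. By sign, 4 of the 8, 4 of the 7 and 4 of the 9 were higher at passage 8 there (medians -0.04, 0.05 and -0.01). The passage 8 control array also had the widest spread over all clusters (SD 2.38, beside 2.33 at passage 6 and 2.32 at passage 7). Its part in these differences was not tested. Postn, a matrix protein of activated fibroblasts, measured 11.48, 11.76 and 12.30, Dcn 10.50, 10.76 and 11.46, Timp2 9.60, 9.96 and 10.45 and Col1a1 10.78, 11.07 and 11.23. Each of the 4 has its arrays in the order of passage. In the treated arrays 13 matrix genes were higher at passage 8 with an unadjusted limma p under 0.05 and 0 lower, and 7 and 0 cytoskeletal genes, where 6.28% of all clusters were called higher and 4.99% lower. Here and below, counts in treated arrays are over all measured members of a list. They take the threshold from the F test over all passages and the direction from the sign of passage 8 minus 6. A gene that differs mainly at passage 7 can thus be among those called higher or lower. The collagen family as a whole leaned less, with 20 of 34 genes above background higher at passage 8 in control (median 0.08) and 5 higher and 2 lower in treated arrays. Of the 4 matrix genes above, the treated differences were 0.69 for Postn, 0.79 for Dcn, 0.87 for Timp2 and 0.49 for Col1a1.

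Cell cycle genes and adipocyte markers leaned the same way, and preadipocyte markers did so in the treated arrays. Of 34 cell cycle genes 27 were higher at passage 8 than at 6 in control, and 14 were higher in treated arrays at an unadjusted p under 0.05 and 0 lower, among them Ccna2 (0.55), Mki67 (0.66), Plk1 (0.66) and Kif11 (0.59). The list's mean was lowest at passage 7 in control (8.52, 8.40 and 8.74). Of 22 adipocyte markers above background 18 were higher at passage 8 in control, and 8 were higher and 0 lower in treated arrays. They were Car3, a carbonic anhydrase of fat (9.77, 9.98 and 10.48 in control, treated difference 0.97), Pck1 (1.03), Aqp7 (0.66), Lep (0.61), Plin4 (0.42), Gpd1 (0.35), Plin1 (0.34) and Retn (0.30). Of 16 preadipocyte and fibroblast markers above background 10 were higher at passage 8 in control, near the share of all genes, and 7 of 17 were higher and 0 lower in treated arrays. These were Acta2, Sfrp2, Sox9 (0.60), Pdgfrb (0.46), S100a4 (0.46), Zfp521 (0.51) and Tagln (0.73). Members of the mature and of the fibroblast list were thus both higher at passage 8, and their part in each other's difference was not tested.

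Lists of mitochondrial respiration and ribosomes, lipogenesis and the clock leaned to passage 6 in control. The control mean of oxidative phosphorylation subunits was lowest at passage 7 (10.30, 10.11 and 10.19 at passages 6, 7 and 8). So were those of mitochondrial ribosomal proteins (8.52, 8.33 and 8.44) and complex I subunits (9.74, 9.52 and 9.62), which show no steady fall with passage. The means of lipogenesis (8.99, 8.92 and 8.90) and the clock (8.64, 8.54 and 8.42) were lowest at passage 8. Of 29 oxidative phosphorylation subunits 23 were lower at passage 8 than at 6 in control (median -0.09). In the treated arrays 2 of 29 were lower and 0 higher at an unadjusted p under 0.05, near the 4.99% of all clusters. By sign alone, 3 of the 29 were higher at passage 8 in the treated arrays (median -0.135), beside 5969 of the 12080 genes above background. Fatty acid oxidation, also mitochondrial, did not lean in control, with 10 of 22 genes higher and 12 lower (median -0.00). In treated arrays 7 of these 22 were higher by sign (median -0.05), and at an unadjusted p under 0.05 2 were higher and 0 lower. Mitochondrial ribosomal proteins had 53 of 76 lower, with 11 lower and 1 higher in treated arrays, and complex I subunits 26 of 37 lower, with 7 lower and 0 higher. Of the lipogenic genes 13 of 18 were lower in control, and 3 were lower and 0 higher in treated arrays. Thrsp, a lipogenic regulator that responds to thyroid hormone, measured 8.83, 8.28 and 8.04 in control and had a treated difference of -1.65 (limma adjusted p = 0.09). Scd3 had a treated difference of -0.68. Elovl3, with a treated difference of -1.05, was not above background on the control arrays. Of 17 clock genes 12 were lower at passage 8 in control, and 5 were lower and 0 higher in treated arrays. Dbp, an output factor of the clock, measured 12.11, 11.87 and 11.42, and Nr1d1, a repressor in its loop, 10.75, 10.57 and 9.91. The other 3 were Per3, Nr1d2 and Cry1, and the labels give no hour of collection.

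A run of neighbouring genes on chromosome 10 was lower at each later passage. Windows of 7 neighbouring genes above background were compared by their median control difference between passages 8 and 6. Of 11956 windows, 99% lay between -0.35 and 0.40, and the lowest, at -0.90, was centred on Cpm, next to Mdm2. The stretch around it, chosen from these control values, runs from Rab3ip to Mdm1 and holds 15 named genes, 11 of them above background. In gene order, Rab3ip, Cct2, Yeats4, 9530003J23Rik, Cpsf6, Cpm, Nup107, Rap1b and Mdm1 had their control arrays in the order passage 6, 7, 8 from high to low. That is 9 of 11, and 2252 of all 12080 genes above background had this order.

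The members of the stretch serve unrelated tasks. Cpsf6, a factor of messenger RNA 3′ end processing, measured 10.76, 10.38 and 9.49 in control. Yeats4, a chromatin reader, measured 9.55, 9.13 and 8.42, and the nuclear pore gene Nup107 9.68, 9.27 and 8.78. The chaperonin subunit Cct2 measured 12.87, 12.70 and 12.29, and the small GTPase Rap1b 11.24, 10.96 and 10.61. In all of these passage 7 lay between the other two. Mdm2 (12.92, 12.86 and 12.96) and its neighbour Slc35e3 (12.49, 12.56 and 12.66), inside the same stretch, did not follow.

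The 9 treated arrays, which share their passages with the control arrays, gave the same picture. Of the 11 genes 8 had treated means in the same order, as had 2005 of all 12080 genes above background. Each of the 8 had an unadjusted limma p under 0.05, where 4.99% of all clusters were lower at passage 8 at that threshold. The treated differences between passages 8 and 6 were -0.99 for Cpsf6, -0.78 for Yeats4, -0.90 for Nup107, -0.54 for Cct2, -0.78 for Rap1b, -0.93 for Rab3ip, -1.06 for 9530003J23Rik and -0.61 for Mdm1. Their adjusted p-values ran from 0.09 to 0.28, so 0 of them passed the adjusted threshold. Cpm (-0.08, limma adjusted p = 0.69), Mdm2 (0.03) and Slc35e3 (0.03) had differences close to 0, whose sign turned without passage 8. Just outside the stretch, Myrfl, not above background on the control arrays (4.87, 4.67 and 4.44), had a treated difference of -0.64. Farther out, the genes above background had treated differences between -0.11 and 0.01 (Kcnmb4 and Cnot2 on 1 side, Dyrk2 and Cand1 on the other), and Helb, the last one shown, had -0.24. Without passage 8 in all groups 4 of the stretch's 11 genes above background had an unadjusted limma p under 0.05, beside 5.26% of all clusters.

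**Figure D5:**
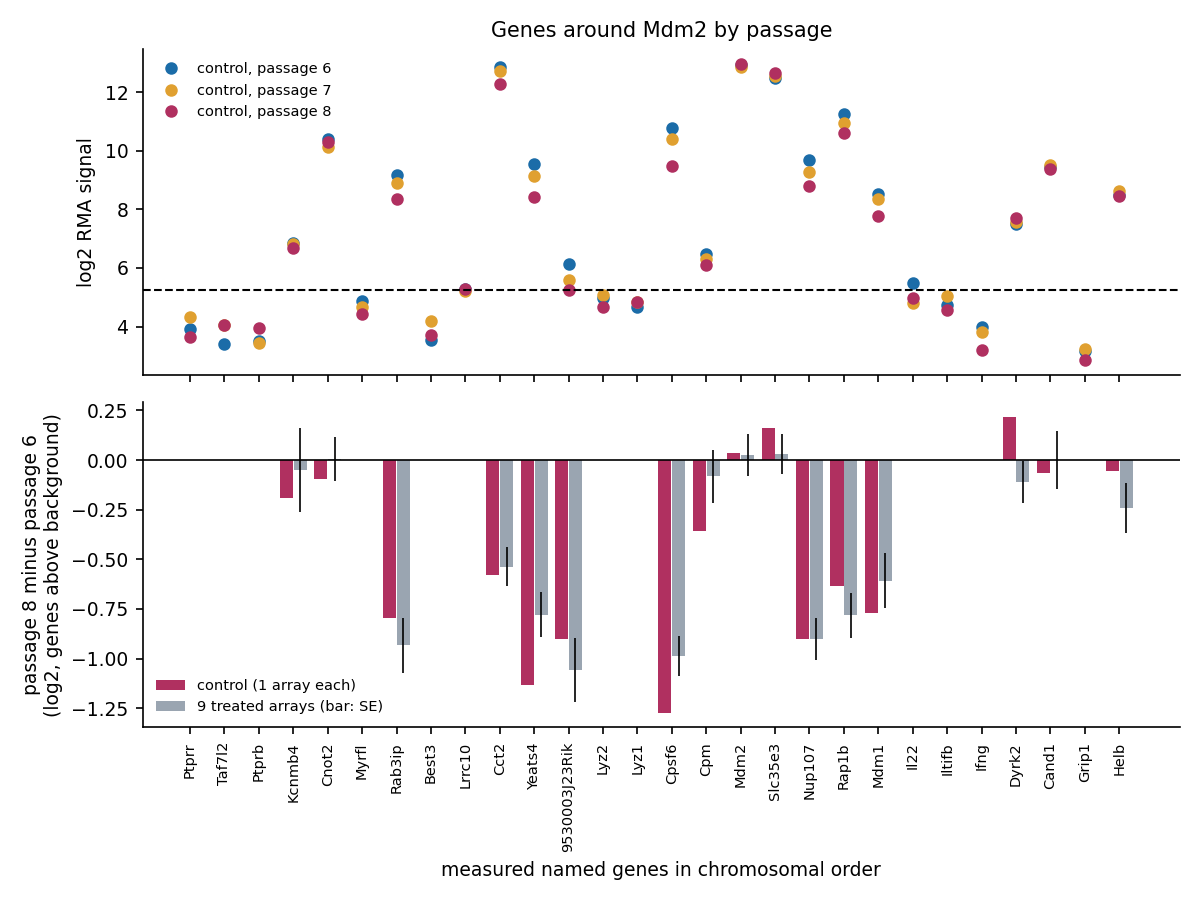
Measured named genes around Mdm2 in chromosomal order, with the control signal at each passage (upper panel, dashed line at the mean background limit) and the difference between passages 8 and 6 for genes above background (lower panel, control in red, the 9 treated arrays in grey with SE bars). From Rab3ip to Mdm1 the bars lie between -0.36 and -1.27 in control except at Mdm2 and Slc35e3.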

How the data were processed

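RNA of 12 cultures was measured on Affymetrix arrays, per the labels' protocols from 100 ng of total RNA with an integrity number above 8.9. The authors deposited log2 signals for 22104 transcript clusters, and the submitters' processing notes name RMA. It corrects background, normalizes over arrays and summarises probes, and it draws dim signals together, so low differences are understated. Its version and the array library's build are not given in the sources used here. Groups came from the labelled treatment. The array annotation named 19509 clusters (2595 unnamed here) for 19480 genes, and where a gene had several, that of highest mean signal in the 12 arrays was kept.

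Means, ranges and ranks were computed over the 3 control arrays in Python 3.11.15. Passage was tested in the 9 treated arrays with limma 3.58.1 (R 4.3.3, passage and treatment as factors, F test, eBayes, 4 residual and 4.00 prior degrees of freedom, Benjamini-Hochberg over all clusters, called under 0.05). The script was tested on simulated data. The members, lists and tests were chosen with earlier results of these data known. Lists hold 36 functions or cell types, and 21 families were matched by symbol. Named were the 4 markers, the 20 highest, 5 middle and 5 lowest genes, the 20 widest and 5 narrowest ranges, of each list its 4 highest, isoform members and members not above background, and up to 10 smallest p-values among the 50 widest. Further list members were named after their values were seen, as were the stretch on chromosome 10 and the genes beside it. The number of arrays limits the precision. With 1 array for each treatment at each passage, p-values measure only the spread left after treatment and passage, in cultures of 1 line. They do not measure the spread between repeated cultures of a passage. Of the other-cell-type lists and the longer lists only the defining members not above background are printed.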

Additional observations from a re-analysis of the deposited data

Results flagged for a closer look

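Clusters without a gene name were left out of the comparisons, and some carried signal. Of 2595 such clusters, 1254 (48.3%) were above the background limit on all 3 control arrays, beside 62% of the named genes. Their median was 5.34, their highest mean 13.14, and 87 lay in the range of the highest 500 named genes. The origin of this signal was not tested.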

How the results depend on the processing

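No paired analysis was possible because no groups are compared and passage, the replicate number in the labels, is itself the tested factor. The number of genes above background was 12080, and between 10173 (99th percentile of the olfactory receptors) and 14492 (vomeronasal receptors in their place) under the alternatives tried. Over the 36 lists, leaving out a control array, centring, quantile normalization and averaging a gene's clusters moved the median beyond its spread in 11 cases and not in 205, by at most 0.19. The 50 widest genes depend on the filter and on single arrays, with 20 still among the widest with no filter on background and between 10 and 38 without 1 control replicate. The adjusted count of the passage test, 1 in the 9 treated arrays, was 274 with all 12 arrays, which adds the control arrays that chose the genes, 320 with an intensity trend, 31 with array weights, 6 without the lowest 30% of clusters, 0 with passage as a number (limma, 1946 clusters with an unadjusted p under 0.05) and 0 after quantile normalization (2444 clusters). Leaving out the ALA array of passage 7, or passage 6, 7 or 8 in all groups, also gave 0, with 2601, 2583, 2712 and 1162 clusters at an unadjusted p under 0.05. Of the stretch from Rab3ip to Mdm1, 8 genes passed the adjusted threshold with all 12 arrays and 8 with the intensity trend, 2 with array weights and 1 without the lowest clusters. The count of the 50 widest with an unadjusted p under 0.05, 33, was between 7 and 35 in the fits that left out arrays, and between 27 and 42 in the others. For 20 genes (10 of the 50 widest and the stretch), counted once for each alternative, the passage difference kept its direction and side of the threshold in 167 cases, passed it in 44 and no longer did in 6, all for Acta2. It reversed in 3, all without replicate 8 in every group and none past the threshold in either fit: Cpm was 0.11, Mdm2 -0.063 and Slc35e3 -0.024. The cause was not tested, and that fit compares passages 7 and 6. The few arrays limit what can be seen, since with 1 control array for each passage no spread within a passage is known.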
